A study of Mus musculus with 8 samples.

Results

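The 10 genes described here are the kinase Cdk1, its partners cyclin B1 (Ccnb1) and cyclin B2 (Ccnb2), the inhibitory kinases Wee1 and Pkmyt1, the activating phosphatases Cdc25a, Cdc25b and Cdc25c, and the small Cdk1-binding subunits Cks1b and Cks2. They were chosen by symbol, for their role around Cdk1, out of 52636 gene IDs in the count table. RNA of primary murine microglia was sequenced after 24 h with LPS (lipopolysaccharide, a component of the bacterial outer membrane to which these cells react) or with vehicle, with 4 libraries per group. The study asked how reactive microglia rebuild their microtubules. It named Cdk1 an upstream regulator of that process, from a loss of inhibitory phosphates on Cdk1 after LPS and from inhibitors. The phosphates were measured in a time course with points much earlier than the 24 h of the RNA. The comparison here asks what happened to the mRNA of Cdk1 and of the genes that switch it on and off.

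All cells were wild type (WT), with the strain given as C57BL/6 in the labels, while the pups named in the methods are C57BL/6N. The medium of both groups (DMEM) held 10% fetal bovine serum and, at 10 ng/ml, mouse CSF-1, the growth factor on which cultured microglia depend, and the LPS group received 5 µg/ml LPS. The microglia had been shaken off mixed glial cultures of triturated neonatal brains, so they are cultured cells supplied with a growth factor rather than cells in tissue. The labels call the 4 libraries of a group biological replicates without naming the cultures, and the p-values measure the spread between these libraries.

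Cdk1 is the kinase that drives entry into mitosis. It is inactive alone, and B-type cyclins, which are made before mitosis and destroyed at its end, switch it on. Wee1 and Pkmyt1 (Myt1) add inhibitory phosphates to Cdk1, Cdc25 phosphatases remove them, and Cks proteins help the active complex to bind targets that are already phosphorylated. All of this regulates activity, and an mRNA level measures none of it. In dividing cells most of these mRNAs accumulate late in the cell cycle, and microglia of the resting brain divide rarely. The study reports that its cultures hardly divided, and that mitotic cells were fewer still after LPS.

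Promoters of this gene group are known for a few short elements, and stretches of 6 of these promoters are shown. RefSeq promoter windows (GRCm38.p6, 250 bases before to 50 after the start) were found for 7 of the 10 genes, all but Wee1, Pkmyt1 and Cdc25c. The window of Cks2 is not printed, though it also holds CCAAT elements and is counted below. Capitals mark TTTGAA or TTCGAA, the cell cycle homology region (CHR) bound by complexes that repress and activate G2/M genes, CCAAT, the element of the factor NF-Y, and TTTGGCGC or TTTCGCGC, forms of the E2F element. Each was searched on both strands, so that TTCAAA and ATTGG are the reverse complements of the CHR and CCAAT elements, and TTCGAA reads the same on both. Each sequence is given 5′ to 3′ along the gene's strand, with positions counted from the RefSeq start.
Cdk1, chr10:69352913-69353062, minus strand: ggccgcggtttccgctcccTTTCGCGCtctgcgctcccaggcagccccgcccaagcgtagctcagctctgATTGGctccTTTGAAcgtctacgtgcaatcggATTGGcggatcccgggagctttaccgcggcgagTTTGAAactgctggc
Ccnb2, chr9:70421540-70421654, minus strand: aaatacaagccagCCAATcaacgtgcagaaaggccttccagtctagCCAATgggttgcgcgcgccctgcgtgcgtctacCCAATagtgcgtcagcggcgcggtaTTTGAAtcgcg
Ccnb1, chr13:100786487-100786596, minus strand: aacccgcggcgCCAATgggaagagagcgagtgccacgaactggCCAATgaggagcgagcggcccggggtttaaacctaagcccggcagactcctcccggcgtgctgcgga
Cks1b, chr3:89418292-89418391, minus strand: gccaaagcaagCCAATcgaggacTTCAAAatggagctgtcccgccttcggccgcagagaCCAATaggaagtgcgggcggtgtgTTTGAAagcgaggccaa
Cdc25b, chr2:131186888-131186967, plus strand: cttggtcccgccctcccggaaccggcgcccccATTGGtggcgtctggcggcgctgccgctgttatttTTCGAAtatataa
Cdc25a, chr9:109875439-109875529, plus strand: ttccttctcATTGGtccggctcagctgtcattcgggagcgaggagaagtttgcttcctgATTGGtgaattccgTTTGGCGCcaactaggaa

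All 7 windows held at least 1 CCAAT, as did 37.4% of all 32851 promoter windows, and 6 of the 7 held 2 or more, against 11.7% of all windows. The member windows were limited to GRCm38.p6, whereas the shares of all windows were taken over the whole promoter set, without that limit. Pairs of CCAAT elements lay 32 bases apart in Cdk1 (first bases 80 and 48 before the start) and in Ccnb1 (99 and 67 before it), and the 3 elements of Ccnb2 were each 33 bases from the next. Other neighbouring elements lay 128 bases apart in Cdk1, 50 in Cdc25a, 40 to 88 in Cks1b and 18 to 43 in Cks2. The share of such spacings over all windows was not counted. TTTGAA was present in Cdk1, Ccnb2 and Cks1b, against 17.9% of all windows, and TTCGAA in Cdc25b, against 1.56%. Ccnb1 held neither CHR spelling in this window. The E2F spelling TTTCGCGC occurred in Cdk1 (0.323% of all windows) and TTTGGCGC in Cdc25a (0.514%), and no other member window held either. These matches are a description of the sequence, and binding at them was not measured.

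The libraries held 20071921 to 30604447 counts. TMM scaling factors, which correct for a different makeup of the libraries, were 1.208 to 1.32 in vehicle and 0.701 to 0.8331 in LPS, so the scaling of the groups was unequal. Levels are given as CPM, the count relative to the library size after this scaling. Over all 13847 tested genes the median log2 fold change was -0.11, and with library totals alone, with no scaling factor, it shifted by -0.68. Of the genes called, 4191 rose and 4686 fell, whereas with library totals alone 1988 rose and 8457 fell. The cultures carried microglial markers at a summed level of 12742 to 16447 CPM in vehicle and 5093 to 5595 CPM after LPS, where 8 of the 10 markers were lower and none was at 0. Of other cell types, the summed level of 8 oligodendrocyte precursor markers was 23.9 to 104 CPM in vehicle and 54.3 to 125 CPM after LPS, and that of 8 astrocyte markers 18.3 to 43.1 and 39.2 to 120. In each of these lists 3 markers fell and 1 rose, the one that rose being Vcan (16.6 to 61.2 CPM) and Gja1 (0.873 to 48.6 CPM), which make up most of the sums after LPS. The summed level of 6 oligodendrocyte markers was 79.6 to 114 and 18.6 to 23.2 (1 lower, Mobp at 0), that of 5 fibroblast markers 0.071 to 3.68 and 5.14 to 20.9 (1 tested, higher), and that of 6 neuron markers 2.66 to 8.52 and 2.1 to 6.46 (2 lower). That of 6 endothelial markers was 31.1 to 73.5 and 163 to 254: all 3 tested markers, Pecam1, Cdh5 and Flt1, rose, Tek and Esam had at most 3 counts in any library, and Cldn5 was at 0. The part of these cell types in the results below was not tested.

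After LPS the mRNA of Cdk1 and of nearly its whole switch was lower. Of the 10 genes, 9 passed the filter on low counts, and all 9 were called lower and 0 higher by edgeR's quasi-likelihood test at a Benjamini-Hochberg adjusted p under 0.05, while 33.8% of all tested genes were called lower. The 9 had a median log2 fold change of -3.01, 8 fell by more than 4-fold and 5 by more than 8-fold. In each of the 9, all 4 LPS libraries lay below all 4 vehicle libraries, which held for 31.5% of all tested genes. Ccnb1, Ccnb2, Pkmyt1, Cdc25c and Cks1b passed the filter only through their vehicle counts, with 0 to 10 counts per LPS library. A call or a separation of these genes could therefore only be towards lower, and it adds no support for the direction. With at least 10 counts required in every library, 4 members remained, all called lower. The B cyclins and Pkmyt1 had the lowest fold changes and Cdc25a the one nearest to 0. In RNA of a whole culture, fewer cells of a type and less RNA per cell cannot be told apart. DESeq2, which tested 19491 genes and called 25.2% of them lower, and the fit without both libraries numbered 1, a setting added after seeing the data, also called the 9 lower. So did the fit with the replicate number as a block, in which 35.6% of the tested genes were lower.

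**Figure D1:**
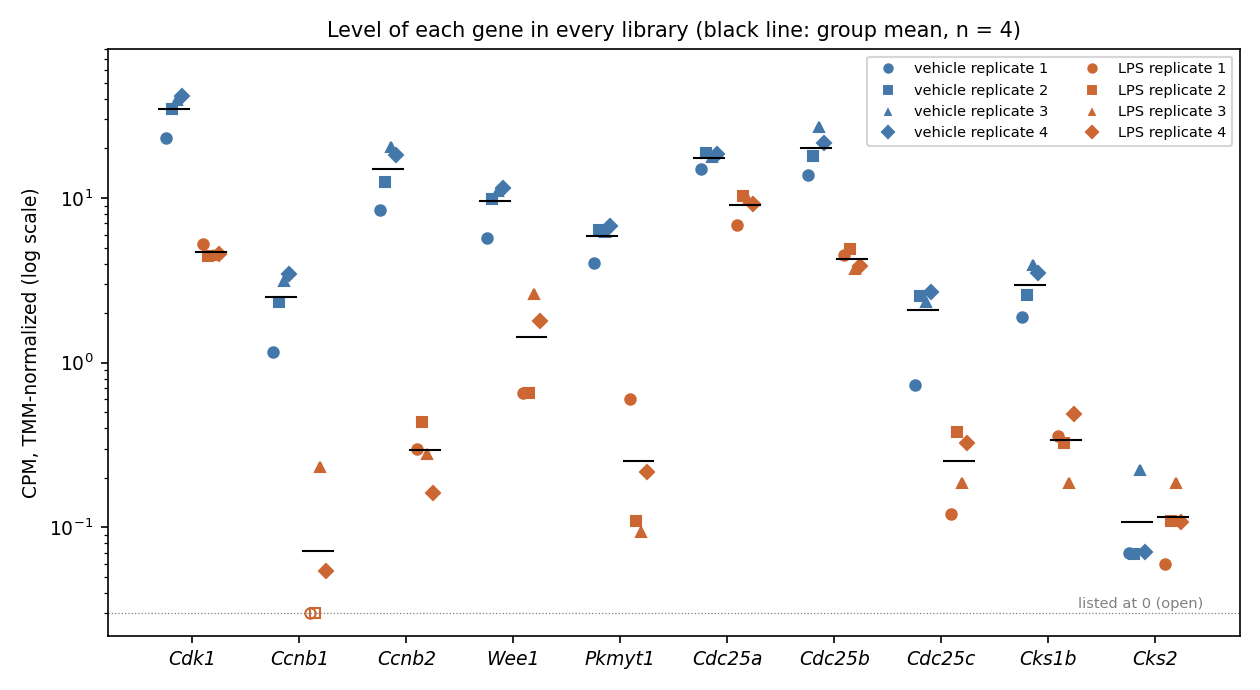
TMM-normalized CPM (log axis) of the 10 genes in each vehicle (blue) and LPS (orange) library, with the shape of a point giving the replicate number and a black line the mean of the 4. In 9 genes all LPS points lie below all vehicle points, whereas the points of Cks2 overlap, and the 2 LPS libraries with 0 Ccnb1 counts are drawn as open symbols on the dotted line.

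Cdk1 itself (chr10:69335146-69352938, minus strand, GRCm38) was well counted in both groups. Vehicle replicates 1 to 4 held 23.0, 34.9, 39.6 and 41.9 CPM, from 657, 1009, 1249 and 1180 counts. LPS replicates 1 to 4 held 5.27, 4.47, 4.48 and 4.54 CPM, from 88, 82, 96 and 84 counts. The LPS libraries were thus close to each other and far below the lowest vehicle library. The mean fell from 34.9 ± 8.42 to 4.69 ± 0.387 CPM (SD, n = 4), a log2 fold change of -2.89 (SE 0.197, edgeR adjusted p = 1.95e-06), or 7.44-fold. Of the tested genes, 626 (4.52%) had a log2 fold change at least as low. Cdk1 mRNA was still counted in every LPS library, at 13.5% of the vehicle mean. No stretch of 50 bases of its transcript occurred in another gene.

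The B cyclins, whose abundance sets when Cdk1 is active, had lower fold changes than the kinase gene. Ccnb2 (chr9:70407692-70421547, minus strand) held 8.51, 12.5, 20.4 and 18.2 CPM in vehicle replicates 1 to 4 and 0.299, 0.436, 0.28 and 0.162 CPM in the LPS replicates, which rest on 5, 8, 6 and 3 counts. All LPS libraries were under a CPM of 1, and the mean fell from 14.9 ± 5.43 to 0.294 ± 0.112 CPM (SD, n = 4). The log2 fold change was -5.64 (SE 0.386, edgeR adjusted p = 2.02e-06), or 50.0-fold, and only 0.607% of the tested genes were as low or lower. Ccnb1 (chr13:100778650-100786570, minus strand) was scarce already in vehicle, with 1.16, 2.32, 3.14 and 3.44 CPM from 33, 67, 99 and 97 counts. In the LPS libraries it had 0, 0, 5 and 1 counts, and a count of 0 allows up to 3 counts, or 0.179 and 0.163 CPM in LPS replicates 1 and 2. LPS replicate 3 therefore held 5 of the 6 Ccnb1 reads found after LPS. The log2 fold change of Ccnb1 was -4.92 (SE 0.741, edgeR adjusted p = 2.85e-04), a mean of 2.51 ± 1.02 CPM against 0.0718 ± 0.111 (SD, n = 4). Without LPS replicate 3 the fit gave -6.72, a value that depends on the prior count because the remaining libraries hold 1 count in all. Of the 50-base stretches of its transcript 42.1% also occur in other genes, mainly Ccnb1-ps, Gm12856, Gm8416 and Gm4870, which held 0 to 4 counts per library, so unique counting may miss Ccnb1 reads in both groups. A further B-type cyclin gene, Ccnb3, had 0 counts in all 8 libraries.

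Both kinases that hold Cdk1 inactive were also lower. Wee1 (chr7:110122046-110143286, plus strand), which acts in the nucleus, held 5.71, 9.83, 11.1 and 11.5 CPM in vehicle replicates 1 to 4 and 0.658, 0.653, 2.61 and 1.79 CPM in LPS replicates 1 to 4. Its LPS libraries fell into a lower and a higher pair, replicates 3 and 4 holding 56 and 33 counts against 11 and 12. The mean went from 9.53 ± 2.64 to 1.43 ± 0.952 CPM (SD, n = 4), a log2 fold change of -2.71 (SE 0.442, edgeR adjusted p = 4.64e-04). Pkmyt1 (chr17:23726336-23736735, plus strand), the membrane-bound kinase of the pair, held 4.03, 6.4, 6.25 and 6.78 CPM in vehicle and 0.598, 0.109, 0.0933 and 0.216 CPM after LPS. LPS replicate 1, with 10 counts, was above the other LPS libraries, with 2, 2 and 4. Its mean went from 5.86 ± 1.25 to 0.254 ± 0.236 CPM (SD, n = 4), a log2 fold change of -4.55 (SE 0.479, edgeR adjusted p = 2.94e-05), which was -5.35 without LPS replicate 1 and -5.51 without both libraries numbered 1. The 3′ neighbour Paqr4 overlaps 8.76% of the exonic bases of Pkmyt1 on the other strand and held 191 to 276 counts in vehicle and 15 to 35 after LPS. Since neither the labels nor the methods say whether counting used the strand, reads in that overlap cannot be assigned to one of the genes.

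The 3 phosphatases that remove the inhibitory phosphates all fell, and kept 51.4% (Cdc25a), 21.1% (Cdc25b) and 12.2% (Cdc25c) of their vehicle mean. Cdc25a (chr9:109875579-109893895, plus strand), which also acts at the start of S phase, held 15.1, 18.8, 17.7 and 18.6 CPM in vehicle and 6.88, 10.3, 9.7 and 9.2 CPM after LPS. Its mean was 17.5 ± 1.7 against 9.02 ± 1.49 CPM (SD, n = 4), with a log2 fold change of -0.96 (SE 0.150, edgeR adjusted p = 3.67e-04). The groups did not overlap, but 25.1% of all tested genes had a fold change as low, and Cdc25a was the member nearest to the median of all genes. Cdc25b (chr2:131186949-131198497, plus strand), which is known to start the activation of Cdk1 at the centrosome, held 13.7, 18.0, 27.1 and 21.6 CPM in vehicle and 4.49, 4.9, 3.73 and 3.84 CPM after LPS. Its mean fell from 20.1 ± 5.7 to 4.24 ± 0.553 CPM (SD, n = 4), a log2 fold change of -2.24 (SE 0.219, edgeR adjusted p = 1.84e-05). Antisense Spef1 covers 2.47% of its exonic bases. Cdc25c (chr18:34732993-34751533, minus strand), which acts in the feedback loop at mitotic entry, rested on few reads, with 21 to 76 counts per vehicle library and 0.735, 2.53, 2.35 and 2.7 CPM. After LPS it held 0.12, 0.381, 0.187 and 0.325 CPM, from 2, 7, 4 and 6 counts, all below the lowest vehicle library. The log2 fold change was -3.01 (SE 0.514, edgeR adjusted p = 6.31e-04), from 2.08 ± 0.906 to 0.253 ± 0.121 CPM (SD, n = 4). The antisense gene Gm3550 covers 12.7% of its exonic bases and held at most 2 counts in a library.

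Of the closely related Cks genes, Cks1b fell and Cks2 was too scarce to test. Cks1b (chr3:89415472-89418383, minus strand) held 1.89, 2.59, 3.9 and 3.52 CPM in vehicle and 0.359, 0.327, 0.187 and 0.487 CPM after LPS. The groups were well apart, and the mean fell from 2.98 ± 0.908 to 0.34 ± 0.123 CPM (SD, n = 4), a log2 fold change of -3.12 (SE 0.373, edgeR adjusted p = 6.38e-05). Cks2 (chr13:51645232-51650660, plus strand) had 2, 2, 7 and 2 counts in vehicle and 1, 2, 4 and 2 after LPS, too few for the filter. In the fit with no filter its log2 fold change was 0.07 (edgeR adjusted p = 0.943), and at this depth a change of Cks2 was not detectable. Of the 50-base stretches of Cks2, 29.7% occur in Gm15452, Gm19945 or Gm12891, and 7.75% of those of Cks1b occur in other genes.

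**Figure D2:**
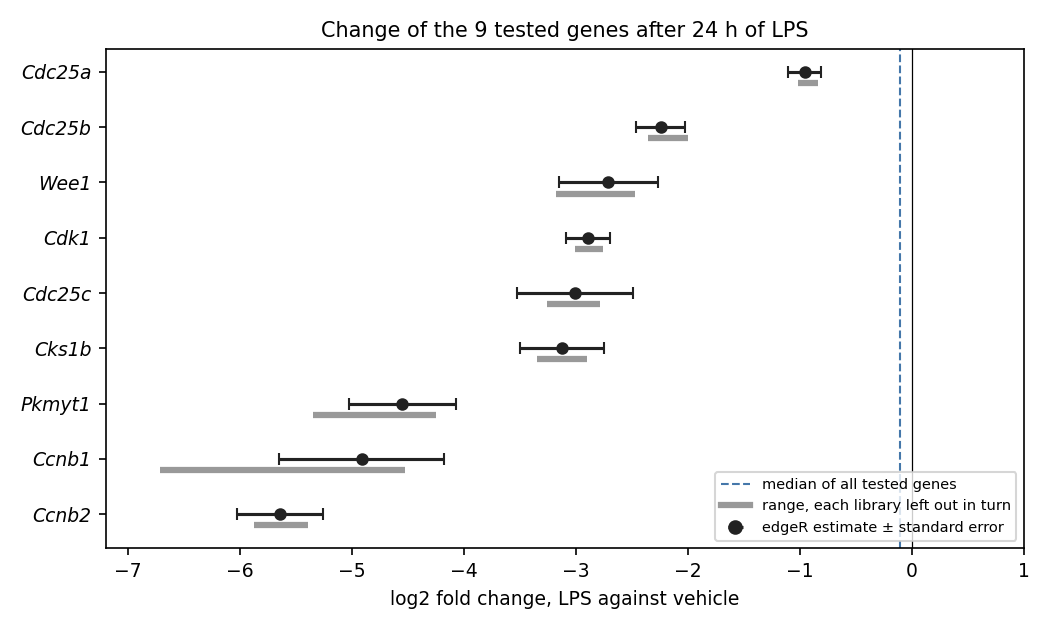
Log2 fold change, LPS against vehicle, of the 9 tested genes, with points and bars giving the edgeR estimate ± its standard error, and grey bars the range when each of the 8 libraries is left out in turn. All estimates and ranges lie left of the dashed line, the median of all tested genes at -0.11, from -5.64 for Ccnb2 to -0.96 for Cdc25a, and the widest range is that of Ccnb1, to -6.72.

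Setting the genes beside each other needs levels per length, here CPM per kb of the principal transcript. In vehicle these per-length levels ran from Ccnb2 (9.74 ± 3.55), Cdk1 (7.97 ± 1.93), Cdc25b (6.5 ± 1.85), Cdc25a (4.83 ± 0.467) and Cks1b (3.5 ± 1.07) to Pkmyt1 (2.87 ± 0.611), Wee1 (2.79 ± 0.773), Cdc25c (1.07 ± 0.466), Ccnb1 (1.01 ± 0.411) and Cks2 (0.156 ± 0.11), each ± SD with n = 4. Neighbours in this order overlapped in their ranges over the libraries, except Wee1 (lowest 1.67) with Cdc25c (highest 1.39) and Ccnb1 (lowest 0.464) with Cks2 (highest 0.321). After LPS the per-length order began with Cdc25a (2.48 ± 0.411), Cdc25b (1.37 ± 0.179) and Cdk1 (1.07 ± 0.0884), followed by Wee1 at 0.417, Cks1b at 0.4, and Ccnb2 at 0.192. Ccnb2 thus stood first in vehicle and sixth after LPS, while the activating phosphatases Cdc25a and Cdc25b moved to the front. After LPS the ranges of Cdc25a, Cdc25b and Cdk1 did not overlap. That of Ccnb2 (0.106 to 0.285) overlapped those of Wee1 (0.191 to 0.764), Cks1b (0.22 to 0.573) and Cks2 (0.0865 to 0.27). It also overlapped those of Cdc25c and Pkmyt1, so its place after LPS is not firm. The last places after LPS were held by Cks2 at 0.167, Cdc25c at 0.13, Pkmyt1 at 0.125 and Ccnb1 at 0.0289 CPM per kb. These levels are not corrected for stretches shared with other genes, which make up 42.1% in Ccnb1 and 29.7% in Cks2. The order rests on the length used: per kb of all exonic bases, an alternative chosen after seeing the data, Cdc25a came sixth in vehicle at 2.19 and level with Cdc25b after LPS, 1.12 against 1.14.

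A ratio of 2 genes within a library does not depend on the scaling between libraries, and 8 such ratios were compared between the groups by an exact two-sided permutation test over the 70 divisions of the libraries, of which the smallest possible p is 0.0286. The log2 ratio of Ccnb2 to Cdk1 was -1.43, -1.48, -0.96 and -1.20 in vehicle replicates 1 to 4 and -4.01, -3.28, -3.89 and -4.59 in the LPS replicates. The groups were separate, with a difference of -2.68 (exact p = 0.0286, adjusted over the 8 ratios 0.0762), so each LPS library held less Ccnb2 per Cdk1 read than each vehicle library. The log2 ratio of Cdc25a to Cdc25b was 0.14, 0.06, -0.62 and -0.21 in vehicle and 0.61, 1.07, 1.37 and 1.25 after LPS, again separate, with a difference of 1.23 (exact p = 0.0286, adjusted 0.0762). The ratio of Cks1b to Cks2 was also separate, with a difference of -3.32 (exact p = 0.0286, adjusted 0.0762), but it rests on the 1 to 7 Cks2 counts per library. These 3 reached the smallest possible p and did not pass the adjusted threshold. With 3 of the 8 ratios at this smallest p, the adjusted p is 0.0762 whatever the size of the differences. The adjusted test therefore cannot decide about them.

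The other 5 ratios overlapped between the groups. That of Ccnb1 to Cdk1 differed by -2.33 (exact permutation p = 0.0571, adjusted 0.114; -3.02 without LPS replicate 3), that of Wee1 to Pkmyt1 by 1.79 (exact p = 0.143, adjusted 0.229), and that of Cdc25b to Cdc25c by 0.65 (exact p = 0.229, adjusted 0.305). Ccnb1 to Ccnb2 differed by 0.34 (exact p = 0.743, adjusted 0.849) and Wee1 to Cdk1 by -0.06 (exact p = 0.914, adjusted 0.914). Both ratios with Ccnb1 rest on its 0, 0, 5 and 1 LPS counts. In LPS replicates 1 and 2 they depend on the 0.5 counts added to each gene. Few LPS counts also lie behind the ratios with Pkmyt1 (10, 2, 2 and 4) and Cdc25c (2, 7, 4 and 6). Wee1 kept a nearly fixed ratio to Cdk1 in vehicle, -1.88 ± 0.08 on the log2 scale, and a far more variable one after LPS, -1.94 ± 1.06 (SD, n = 4), from -2.94 in LPS replicate 1 to -0.77 in replicate 3. The sign of the differences of Wee1 to Cdk1 and of Ccnb1 to Ccnb2 turned when single LPS libraries were left out: Wee1 to Cdk1 became 0.27 without LPS replicate 1 and 0.20 without LPS replicate 2, and Ccnb1 to Ccnb2 became -0.33 without LPS replicate 3 and -0.00 without LPS replicate 4. Wee1 to Pkmyt1 stayed positive, from 1.11 without LPS replicate 3 to 2.56 without LPS replicate 1.

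**Figure D3:**
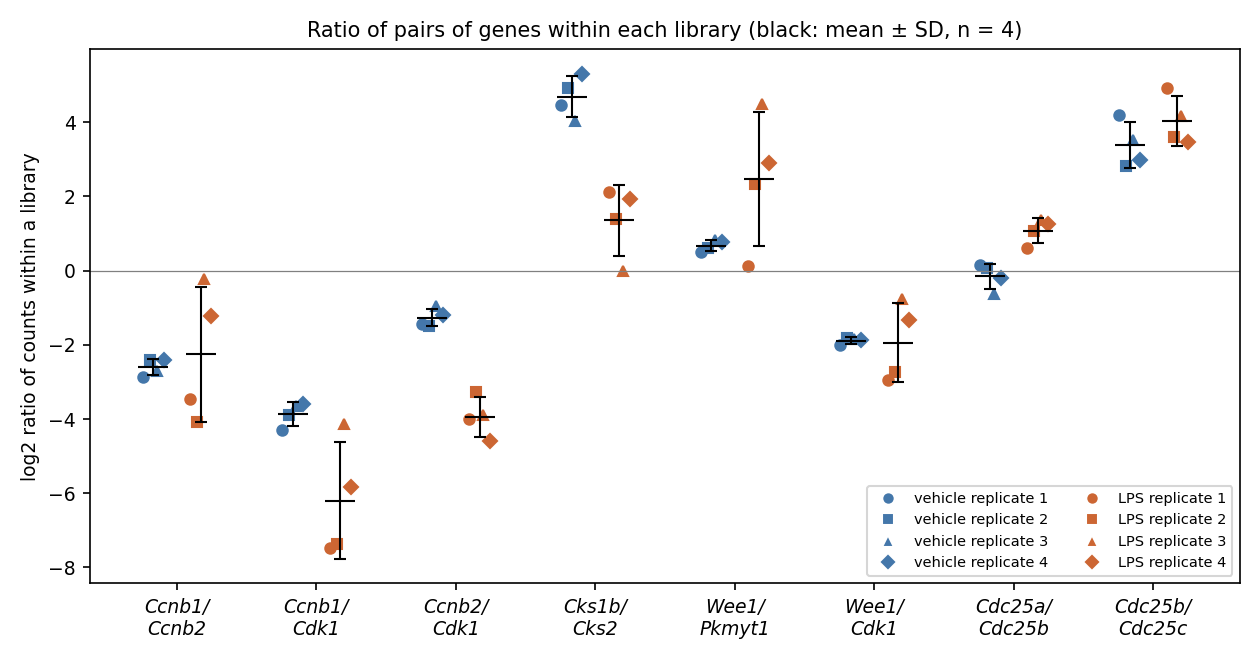
Log2 ratio of the counts of 2 genes within each vehicle (blue) and LPS (orange) library, with the shape of a point giving the replicate number and the black bars the mean ± SD of 4. Ccnb2/Cdk1, Cks1b/Cks2 and Cdc25a/Cdc25b show no overlap between the groups, and the vehicle points of Wee1/Cdk1 lie within a far narrower range than its LPS points.

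Within the vehicle group the tested members shared their lowest library but not their highest. Vehicle replicate 1 was the lowest of the 4 vehicle libraries for all 9 tested members, while the highest was vehicle replicate 4 for Cdk1, Ccnb1, Wee1, Pkmyt1 and Cdc25c, replicate 3 for Ccnb2, Cdc25b and Cks1b, and replicate 2 for Cdc25a. The share of all tested genes lowest in vehicle replicate 1 was not counted. The proliferation markers Mki67 (59.9 CPM) and Top2a (46.3 CPM) were lowest there too, so this is not particular to the members. Of the other cell type sums, vehicle replicate 3 had the lowest precursor and astrocyte sums, 23.9 and 18.3 CPM, and vehicle replicate 1 the lowest endothelial sum, 31.1 CPM. The part of these cells in the spread was not tested. In the LPS group the lowest library was not shared. Cdc25a and Cdc25c were lowest in LPS replicate 1, Cdk1 and Wee1 in LPS replicate 2. Pkmyt1, Cdc25b and Cks1b were lowest in LPS replicate 3 and Ccnb2 in LPS replicate 4, while Ccnb1 had 0 counts in LPS replicates 1 and 2. Ccnb1 and Wee1 were highest in LPS replicate 3, Cdk1 and Pkmyt1 in LPS replicate 1, Ccnb2, Cdc25a, Cdc25b and Cdc25c in LPS replicate 2, and Cks1b in LPS replicate 4. Taking libraries with the same replicate number as pairs, each of the 9 tested members was lower after LPS in 4 of 4 pairs, and Cks2 in 2 of 4. A gene whose LPS libraries all lie below its vehicle libraries, as in 31.5% of tested genes, is necessarily lower in every pair. The share lower in 4 of 4 pairs was not counted over all genes. The log2 change of Cdk1 was -2.11, -2.94, -3.12 and -3.18 in pairs 1 to 4, smallest in the pair whose vehicle library held least of it.

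The genes around the switch did not move as one. Of 85 other genes on 9 lists (further mitotic cyclins, upstream kinases, phosphatase PP2A-B55, inhibitors, cyclin destruction, SCF ligases, transcription factors, microtubule proteins and proliferation markers), 82 were tested, 40 fell and 20 rose, beside 33.8% and 30.3% of all tested genes, and their median log2 fold change was -0.41, while with library totals alone 61 fell and 11 rose. The transcripts of several genes named from these lists share over 10% of their 50-base stretches with other genes, namely Ccna2, Plk1, Ppp2ca, Gadd45a, Cdkn1a, Cdc20, Stmn1, Tubg1 and Ccnd1, and their values are less certain.

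Most tested genes on the list of further mitotic cyclins and the Cdk-activating kinase, and on that of upstream and checkpoint kinases, fell. Ccna2, cyclin A2, the cyclin that partners Cdk1 before the B cyclins do, went from 32.3 ± 11.1 to 0.734 ± 0.166 CPM (SD, n = 4), a log2 fold change of -5.45, and Ccnf fell by 1.75 on the log2 scale. Of this list 4 of 6 tested genes fell and 0 rose, and among them Ccnh, the cyclin of the Cdk-activating kinase, was lower by a log2 fold change of -0.75, while its partners Cdk7 (-0.00, edgeR adjusted p = 0.982) and Mnat1 (0.08, edgeR adjusted p = 0.74) did not pass, though both were called lower with library totals alone. Of the 7 genes on the list of upstream and checkpoint kinases, which also holds the cofactor Bora, 6 fell, with a median log2 fold change of -2.92. Plk1, which phosphorylates both Wee1 and Cdc25c, held 6.2, 11.9, 15.9 and 14.1 CPM in vehicle and 0.12, 0.0545, 0.0933 and 0.216 CPM after LPS, a log2 fold change of -6.58 (SE 0.44, edgeR adjusted p = 1.87e-06). Aurkb was lower at -4.18 and Chek1, the checkpoint kinase that restrains Cdc25 proteins, at -3.72.

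Inhibitors of Cdk1 complexes were mostly higher. Of 6 tested inhibitors of Cdk1 complexes 4 rose and 1 fell, with a median log2 fold change of 2.06, and the 4 rose with every scaling used. Gadd45b, a stress-induced protein of a family known to bind the Cdk1 and cyclin B1 complex, went from 6.79, 7.89, 8.31 and 6.78 CPM in vehicle to 127, 282, 140 and 288 CPM after LPS, a log2 fold change of 4.81 (SE 0.32, edgeR adjusted p = 1.6e-06). Its relatives Gadd45a and Gadd45g rose by log2 fold changes of 3.16 and 2.18. Cdkn1a (p21), named here after its values were seen, rose from 250 ± 48.6 to 957 ± 237 CPM (SD, n = 4), a log2 fold change of 1.94, whereas Cdkn1b (p27) was at 0.05 (edgeR adjusted p = 0.786) and was called lower with library totals alone. The Greatwall and PP2A-B55 list holds 7 genes of opposite roles, of which 5 rose and 1 fell, but with library totals alone 3 rose and 4 fell. Of the phosphatase, which removes phosphates that Cdk1 has placed on its targets, Ppp2ca, Ppp2r2d and Ppp2r2a had log2 fold changes of 1.17, 1.11 and 1.00 and were also called higher with library totals alone, and Ppp2r1a rose by 0.38 but was lower with library totals alone (-0.29). Of the genes whose products restrain this phosphatase, Arpp19 was lower at -0.98, and Ensa was called higher at 0.37, a call lost in 7 other settings and turned to lower (-0.31) with library totals alone. Mastl, the Greatwall kinase, was at -0.41 (edgeR adjusted p = 0.409), but at -1.02 and called lower without LPS replicate 3 (edgeR adjusted p = 0.01) and at -1.14 with library totals alone.

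The genes around the destruction of cyclin B were divided. Of 14 tested genes of the anaphase-promoting complex, its helpers and its inhibitors 9 fell and 2 rose, the latter 0 with library totals alone. The lowest of those named by rule were Ube2c (-5.17), Cdc20 (-4.25) and Bub1b (-3.73), of which Bub1b is among the inhibitors of the complex. Without LPS replicate 2 the value of Cdc20 was -5.04. Of 7 SCF ligase genes, whose products mark Wee1, Cdc25a and Cdk inhibitors for destruction, 2 rose and 2 fell: Fbxw11 rose by a log2 fold change of 1.20, Skp2 was lower at -1.37 and Rbx1 at -0.51. The call of Rbx1 was lost without LPS replicate 2 (-0.44, edgeR adjusted p = 0.0535), without LPS replicate 4 (-0.45, edgeR adjusted p = 0.0509) and without both libraries numbered 1 (-0.49, edgeR adjusted p = 0.0518). Of 21 transcription factor genes of G2/M promoters 9 fell and 6 rose, of which 2 rose with library totals alone. Foxm1, the activator of B cyclin and Cdc25b genes, fell from 19.2 ± 6.58 to 1.06 ± 0.499 CPM (SD, n = 4), a log2 fold change of -4.17, E2f7 was lower at -5.34 and E2f2 at -4.05, the last at -5.39 without LPS replicate 3.

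**Figure D4:**
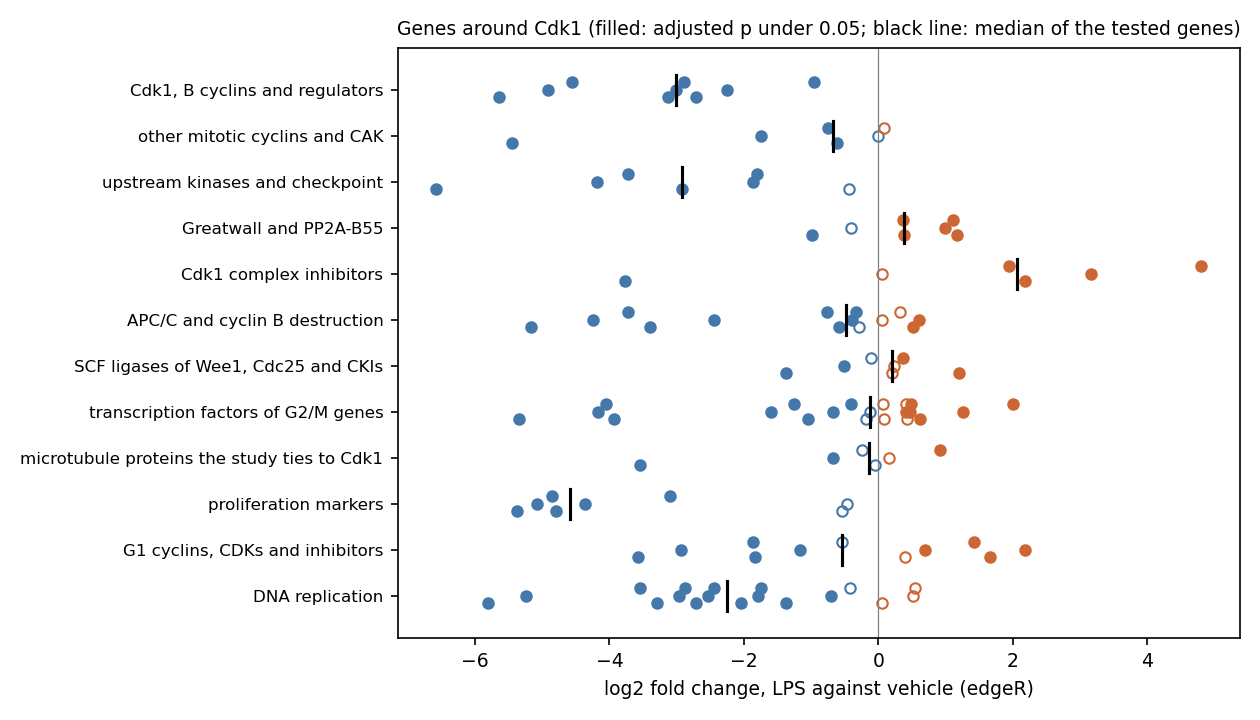
Log2 fold change, LPS against vehicle, of every tested gene on each list, filled where the edgeR adjusted p is under 0.05, blue below and orange above 0, with a black line at the median of the list. The members (top row) all lie below 0, the inhibitors of Cdk1 complexes have 4 filled points above 0, and the proliferation markers have the lowest median, -4.58.

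Microtubule genes taken from the study moved in different directions. Since the study chose them, this is not independent evidence of any of them. The study reported effects of Cdk1 inhibition for the proteins of Stmn1, Map4 and Tubg1. Those of Akap9, Pcnt and Camsap2 it described after LPS without the inhibitor. Stmn1 (stathmin, which destabilizes microtubules) held 0.665, 1.07, 1.11 and 1.14 CPM in vehicle and 0.0598, 0.218, 0.0466 and 0 CPM after LPS, a log2 fold change of -3.55 (SE 0.61, edgeR adjusted p = 6.31e-04), which was -4.62 without LPS replicate 2, and few counts lie behind it. Map4, which stabilizes microtubules, rose from 167 ± 10.2 to 315 ± 35.8 CPM (SD, n = 4), a log2 fold change of 0.92. Pcnt was lower at -0.67, and Akap9 (-0.24), Tubg1 (0.16) and Camsap2 (-0.05) did not pass the test. With library totals alone all 3 were called lower, with Akap9 at -0.94, Tubg1 at -0.51 and Camsap2 at -0.74. Akap9 was also called lower with upper quartile factors (-0.41, edgeR adjusted p = 0.0437) and without LPS replicate 3 (-0.41, edgeR adjusted p = 0.0183).

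Genes of dividing cells outside the switch also fell. Of 8 proliferation markers 6 fell and 0 rose: Mki67 went from 59.9, 104, 114 and 127 CPM to 4.31, 3.59, 7.09 and 4.6 CPM, a log2 fold change of -4.36 (SE 0.29, edgeR adjusted p = 1.81e-06), Top2a was lower at -4.80, Cenpf at -5.38, Nusap1 at -5.08 and Birc5 at -4.86. Of 18 DNA replication genes 14 fell and 0 rose, with a median log2 fold change of -2.25, led by Rrm2 (-5.81), Tk1 (-5.24) and Mcm2 (-3.54). The 11 genes of the G1 switch, the counterpart of Cdk1 earlier in the cycle, were divided, with 5 lower and 4 higher (2 higher with library totals alone): Ccnd1 was lower at -2.94 and Cdkn2c at -3.57, and Cdkn2d rose by 2.18 on the log2 scale. Cdk1, at -2.89, thus lay above the median of the proliferation markers and below that of the replication genes.

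The genes whose pattern over the 8 libraries was most like that of Cdk1 were Tcf19, Bard1, Klhl42, Kdm2b and Uhrf1, with root mean square distances of the centred log2 CPM of 0.121, 0.154, 0.170, 0.186 and 0.194, among 11089 candidate genes. Of the nearest 50 genes 7 were on one of the lists. Most of such a likeness comes from the difference between the groups, which the 8 libraries share. Of the members with enough counts to be ranked, Cdc25b was 108th, Wee1 627th, Pkmyt1 1516th, Cdc25a 1909th and Ccnb2 3820th, so Cdc25b was the member closest to Cdk1 and Ccnb2, the steepest fall, the farthest. Tcf19 went from 10.7 ± 2.58 to 1.31 ± 0.0781 CPM (SD, n = 4), a log2 fold change of -3.02.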

How the data were processed

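The authors filtered, aligned (GSNAP, GRCm38) and counted single-end reads of 50 bases with HTSeqGenie, kept uniquely aligned reads, and deposited raw counts per gene and library. The labels and the methods name different kits and sequencers, and the annotation release and strand setting are not given in the sources used here. Symbols and positions were taken from GENCODE vM21 (52489 of 52636 IDs matched) and promoters from RefSeq. Counts were tested with edgeR 4.0.16 in R 4.3.3 (TMM, filterByExpr with a minimum count of 10 and total of 15, quasi-likelihood, two-sided, Benjamini-Hochberg over all tested genes, threshold 0.05). DESeq2 1.42.0, other scaling factors, other filters, a replicate block, an adjusted p of 0.01 and leaving out each library were the alternatives. Fold changes below the depth of a few counts depend on the prior count of 0.125, and floors of 3 counts cover counting error only. Ratios used a pseudocount of 0.5 counts. Figures and tables were made in Python 3.11.15. The fits were tested on simulated data.

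The 10 genes and all lists were chosen with earlier results of these data known. Named genes are the members, the 3 largest called changes of each list (mean log2 CPM 1 or more), the whole list of microtubule proteins, Mki67, Top2a and the 5 genes nearest to Cdk1 in pattern. Ccnb3, Cdk7, Mnat1, Mastl, Ensa, Arpp19, Ppp2r1a, Cdkn1a, Cdkn1b and the markers of other cell types were named after their values were seen. The closest pair of libraries, LPS replicates 2 and 4, differed by a chi-square of 6.98 per degree of freedom, more than sampling noise. As a check of pairing, each library's deviation from its group mean was correlated with that of the library of the same number. The r was 0.361, 0.183, 0.183 and 0.130 over 8382 genes, all over 0.1. Vehicle 2 with LPS 4 (0.154) and vehicle 4 with LPS 2 (0.141) correlated about as much. The numbers were treated as pairs only in the replicate block, the changes by pair and the sign flips. The main fit and the permutation test of ratios took no account of pairing. No library or sequencing batch is given in the labels.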

Additional observations from a re-analysis of the deposited data

Results flagged for a closer look

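In a group of 4 libraries, a library was singled out when its gap to the nearest other library was too large a part of the whole range of the group by Dixon's criterion. This was applied to 106 groups, 8 exceeded it, and chance gives about 1 in 20. Among the members, Cdk1 was highest in LPS replicate 1 (5.27 CPM against 4.47 to 4.54, a gap of 0.902 of the range), and Cks2 was highest in vehicle replicate 3 (7 counts against 2 in each of the others, 0.988). Among the other genes, LPS replicate 4 was low for Ccna2 (0.487 CPM, 0.872), and LPS replicate 3 was high for Ppp2r2a (102 CPM, 0.832) and Rbx1 (15.7 CPM, 0.943). Vehicle replicate 1 was low for Stmn1 (0.665 CPM, 0.865) and Ccnd1 (121 CPM against 281 to 298, 0.907), and vehicle replicate 3 was low for Tubg1 (11.2 CPM, 0.898).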

How the results depend on the processing

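The 9 tested members were called lower under every alternative run that kept them in the test, and with at least 10 counts in every library only 4 of them remained, all lower. Library totals alone gave 1988 genes higher and 8457 lower, with Cdk1 at -3.57 and Cdc25a at -1.64, since this scaling shifts all genes by about -0.68. With the replicate block 9044 genes were called and 9 members were lower, with Cdk1 at -2.86. On the lists of other genes 18 rose and 42 fell, and the block changed the call of no tested gene named from these lists. For the ratios of 2 members, exact sign flips of the 4 pairs cannot go below 0.125, so this paired test cannot pass the threshold. With a pseudocount of 5 the difference of Wee1 to Cdk1 became 0.15 and that of Cdc25b to Cdc25c -0.13. Leaving out each library in turn gave 8031 to 9314 genes called. It gave -3.01 to -2.76 for Cdk1, -6.72 to -4.53 for Ccnb1, -5.88 to -5.39 for Ccnb2, -3.18 to -2.47 for Wee1, -5.35 to -4.25 for Pkmyt1, -1.02 to -0.84 for Cdc25a, -2.36 to -2.00 for Cdc25b, -3.26 to -2.79 for Cdc25c and -3.35 to -2.90 for Cks1b. It gave -0.33 to 0.95 for the ratio of Ccnb1 to Ccnb2 and -0.45 to 0.27 for that of Wee1 to Cdk1. Among the other genes, Tubg1 reversed to -0.51 with library totals alone, and Camsap2 to 0.01 with DESeq2 and with relative log expression factors, to 0.00 to 0.05 without vehicle replicate 1, 2 or 4 or LPS replicate 1 (range over all libraries left out -0.17 to 0.05), and to 0.05 without both libraries numbered 1. Akap9 moved to -0.41 with upper quartile factors. The cause was not tested. Few counts after LPS limit Ccnb1, Ccnb2, Pkmyt1, Cdc25c, Cks1b and Cks2, which held 0 to 10 counts per LPS library.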
